A study of Mus musculus with 6 samples.

Results

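The CDK inhibitors and the kinase subunits that they oppose decide whether a resting cell leaves G1, and 10 genes of this switch were examined in splenic T cell preparations of miR-142 KO and wild-type mice. They were the Cip/Kip inhibitors Cdkn1a, Cdkn1b and Cdkn1c, the INK4 inhibitors Cdkn2c and Cdkn2d, the D cyclins Ccnd1, Ccnd2 and Ccnd3, and the cyclin D kinases Cdk4 and Cdk6. All probe sets that the platform annotation assigns to these genes were taken, which gave 26 of 45037 probe sets tested and 10 of 18193 genes. Each sample was the T cells of a single spleen, enriched by negative selection from a male mouse on the C57BL/6 background at 10 weeks of age, and its RNA was read on a 1-colour Affymetrix array. The WT group was 3 wild-type littermates, and the KO group was 3 mice labelled miR-142 KO, with no other allele or agent named. How the locus was disrupted is not given in the sources used here, and negative selection leaves in the preparation any cell that its antibodies do not bind.

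In G1, D cyclins bind Cdk4 or Cdk6 and the complexes phosphorylate the retinoblastoma protein and its relatives, which frees E2F factors. INK4 proteins bind Cdk4 and Cdk6 and keep the D cyclins off them. Cip/Kip proteins bind whole cyclin and kinase complexes, above all those of Cdk2. Resting T cells are known for abundant p27, the product of Cdkn1b, and lymphocytes for using Ccnd2, Ccnd3 and Cdk6 rather than Ccnd1.

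The mature strands of miR-142 are shown because every comparison here is between mice labelled miR-142 KO and wild-type littermates. Levels of the mature strands were not examined here. The strands are given 5′ to 3′ from RefSeq (GRCm38.p6, plus strand) with the seed, bases 2 to 8, in capitals, and lie at chr11:87756867-87756887 for the 5p strand and chr11:87756903-87756925 for the 3p strand.
mmu-miR-142a-5p: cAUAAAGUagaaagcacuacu
mmu-miR-142a-3p: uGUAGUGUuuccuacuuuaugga

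RefSeq promoter windows (GRCm38.p6, 250 bases before to 50 after a gene's start) were at hand for 7 of the 10 genes, in 10 windows. The windows of Cdk4, Cdk6 and Cdkn2c are shown because these genes were all higher in KO and their windows hold a searched motif, set in capitals, either the E-box CACGTG or the E2F motif TTCCCGC. They are chr10:127063285-127063584 on the plus strand for Cdk4, chr5:3343643-3343942 on the plus strand for Cdk6 and chr4:109666707-109667006 on the minus strand for Cdkn2c.
Cdk4: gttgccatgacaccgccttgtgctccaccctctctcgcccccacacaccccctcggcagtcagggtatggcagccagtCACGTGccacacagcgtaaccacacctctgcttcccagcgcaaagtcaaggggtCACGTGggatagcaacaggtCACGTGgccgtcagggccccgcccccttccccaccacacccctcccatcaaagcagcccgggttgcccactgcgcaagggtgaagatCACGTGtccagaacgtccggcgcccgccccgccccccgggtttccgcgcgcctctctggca
Cdk6: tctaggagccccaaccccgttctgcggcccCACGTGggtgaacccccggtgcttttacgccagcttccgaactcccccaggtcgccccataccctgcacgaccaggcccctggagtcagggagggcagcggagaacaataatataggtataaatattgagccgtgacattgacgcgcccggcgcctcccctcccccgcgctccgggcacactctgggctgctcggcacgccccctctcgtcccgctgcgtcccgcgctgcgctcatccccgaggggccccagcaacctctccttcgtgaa
Cdkn2c: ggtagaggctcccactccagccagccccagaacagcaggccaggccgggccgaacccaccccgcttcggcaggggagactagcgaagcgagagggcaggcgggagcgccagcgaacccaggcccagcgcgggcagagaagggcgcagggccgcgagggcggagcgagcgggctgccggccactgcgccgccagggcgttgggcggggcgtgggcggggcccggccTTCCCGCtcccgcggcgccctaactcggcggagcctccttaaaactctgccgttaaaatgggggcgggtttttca

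The Cdk4 window holds 4 E-boxes, the sequence bound by MYC and related factors, which begin 172, 118, 98 and 11 bases before the gene's start. At least 4 were found in 8 of 32851 windows of all genes (0.0244%), and at least 1 in 7.15% and in 3 of the 10 member windows. The cutoff of 4 was taken from the Cdk4 window itself, so the share of 0.0244% is a description and not a test. The Cdk6 window holds 1 E-box, which begins 220 bases before the start, and a further window of Cdkn2c holds another. The E2F motif, searched on both strands, was in 4.6% of all windows and in 1 of the 10 member windows, that of Cdkn2c, where it begins 25 bases before the start. On both strands, CCAAT was in 37.4% of all windows and 4 of the 10, in genes that were higher as well as genes that were lower in KO. The FOXO motif TGTTTAC was in 3.65% and 1 of the 10, a window of Ccnd3, and the CHR motif TTTGAA in 17.9% and 0 of the 10. Neither window of Cdkn1a, which also rose in KO, holds any of the searched motifs. No matches of different motifs overlapped. A match describes letters in these windows, and no binding was measured.

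Facts of the arrays bear on all values that follow. The probe set listed as Mir142 read 7.93, 8.13 and 7.67 in WT replicates 1 to 3 and 5.97, 5.88 and 5.90 in KO replicates 1 to 3 as log2 intensities (limma adjusted p = 6.6e-05). Whether that probe set lies in the disrupted part of the locus is not known here. The mean level of 11 measured T cell markers was 12.04 to 12.06 in WT, and 10.45, 9.24 and 10.65 in KO replicates 1 to 3, and all 11 fell, Cd3d, Cd3e and Cd3g of the T cell receptor complex among them. Markers of other blood lineages were higher in KO. Neutrophil markers averaged 6.25 to 7.52 in WT and 10.65 to 13.17 in KO, and 10 of 10 rose. Markers of mast cells, basophils and eosinophils averaged 5.90 to 6.00 and 9.83 to 10.31, and 11 of 12 rose. Erythroid markers averaged 7.29 to 7.73 and 10.05 to 11.12, and 9 of 9 rose. The averages in WT and KO were 6.00 to 6.38 and 8.66 to 9.59 for monocyte and macrophage markers (8 of 10 rose), 5.78 to 6.01 and 7.04 to 7.35 for megakaryocyte and platelet markers (5 of 7 rose), and 5.91 to 5.95 and 8.38 to 8.46 for progenitor markers (7 of 8 rose). B cell markers averaged 6.17 to 6.58 and 6.57 to 7.94, and 1 of 9 rose, with 3 rising without KO replicate 2 and 0 without WT replicate 2 or 3. In bulk RNA, fewer cells of a type and less RNA per cell cannot be told apart, and the part of these other cells in the results below was not tested. Signs of RNA quality also moved with genotype. The 18S controls read 9.47 to 9.66 in WT and 7.86, 9.15 and 9.19 in KO replicates 1 to 3, all lower, with KO replicate 1 standing apart. The 3′ minus 5′ log2 difference was 0.16 to 0.23 in WT and 0.32 to 0.40 in KO for the Actb controls, and -0.18 to -0.15 and -0.10 to 0.18 for those of Gapdh, with no overlap in either. The part of these in the results was not tested. The hybridization controls lay at 10.21 ± 0.10 (SD, n = 3) on the WT arrays and at 9.85 ± 0.06 on the KO arrays, and scaling each array to them raised every KO minus WT difference by 0.37, the median of all probe sets going from -0.08 to 0.29.

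**Figure D1:**
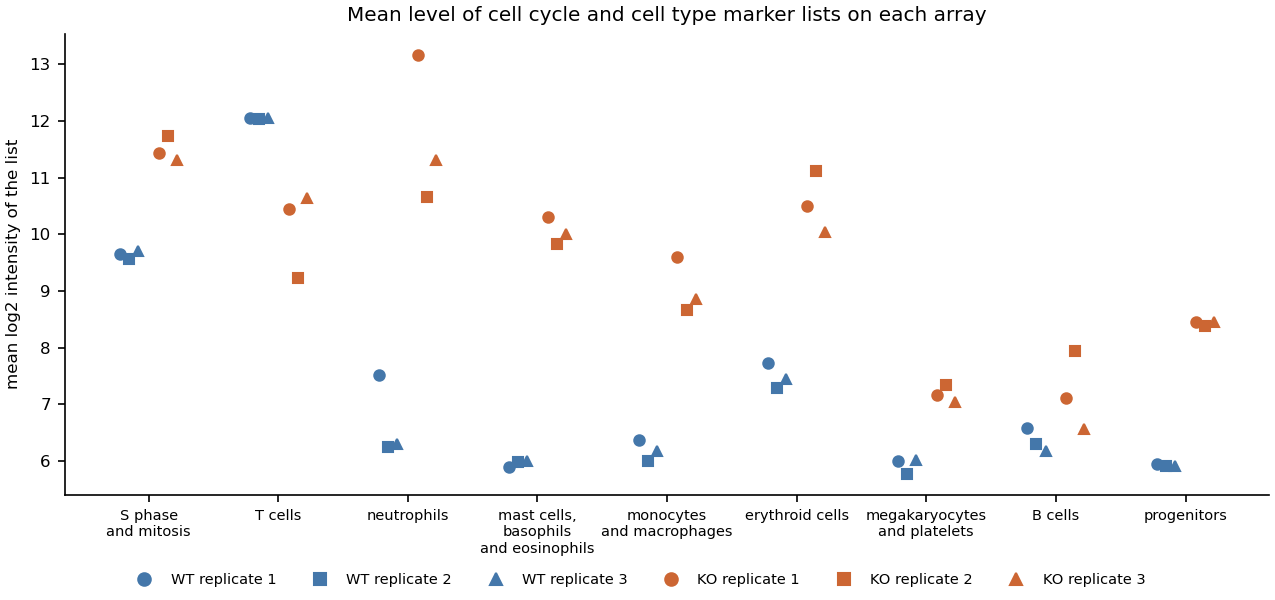
Mean log2 probe-set intensity (vertical axis) of the S phase and mitosis list and of each cell type marker list on each of the 6 arrays, WT in blue and KO in orange, with a symbol for each replicate. The 3 KO arrays lie below the WT arrays for T cell markers and above them for the S phase and mitosis list and the neutrophil, mast cell, monocyte, erythroid, megakaryocyte and progenitor lists.

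The comparison of KO with WT asks how these genes of the G1 switch differ in T cell preparations of mice labelled miR-142 KO. Of the 26 probe sets 13 rose and 10 fell in KO, where rose and fell stand for a limma p adjusted over all 45037 probe sets below 0.05, and 29.4% of all probe sets were called (13.9% rose and 15.5% fell). All 26 had a mean level above the median of all probe sets. With probe sets below that median left out, 13 of the 26 rose and 11 fell. Most calls lay in this brighter part, where 5702 rose and 5959 fell, against 6242 and 6986 over all 45037. The shares over all probe sets, here and below, include the dimmer ones. The 26 probe sets stand for 10 genes, so those of 1 gene are repeated readings of related transcripts. At the brightest probe set of each gene, Cdkn1a, Cdkn2c, Ccnd1, Ccnd3, Cdk4 and Cdk6 rose, Cdkn2d and Ccnd2 fell, and Cdkn1b and Cdkn1c were not called. Among all genes taken in this way 37.2% were called. The median difference of the 10 genes was 0.87 against -0.06 over all genes, and the median size of a difference without its sign was 1.08 against 0.25. The gene median takes Ccnd3 at its rising probe set. Over the 26 probe sets the median difference was 0.38, against -0.08 over all probe sets. The KO and WT arrays did not overlap in 25 of the 26 probe sets, as in 45.9% of all probe sets. Scaled to the hybridization controls, 14 of the 26 rose and 8 fell, where 43.6% of all probe sets were called, and in a fit blocked on replicate number 13 rose and 9 fell, where 23.1% were called. With each gene at the mean of its probe sets 5 genes rose and 5 fell, Ccnd3, Cdkn1b and Cdkn1c being the additional falls (38.5% of all genes called), and at an adjusted p below 0.10 at the brightest probe set 6 rose and 4 fell (44.6% of all genes called). Rises and falls were both found among the inhibitors and among the D cyclins, and the kinases rose.

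**Figure D2:**
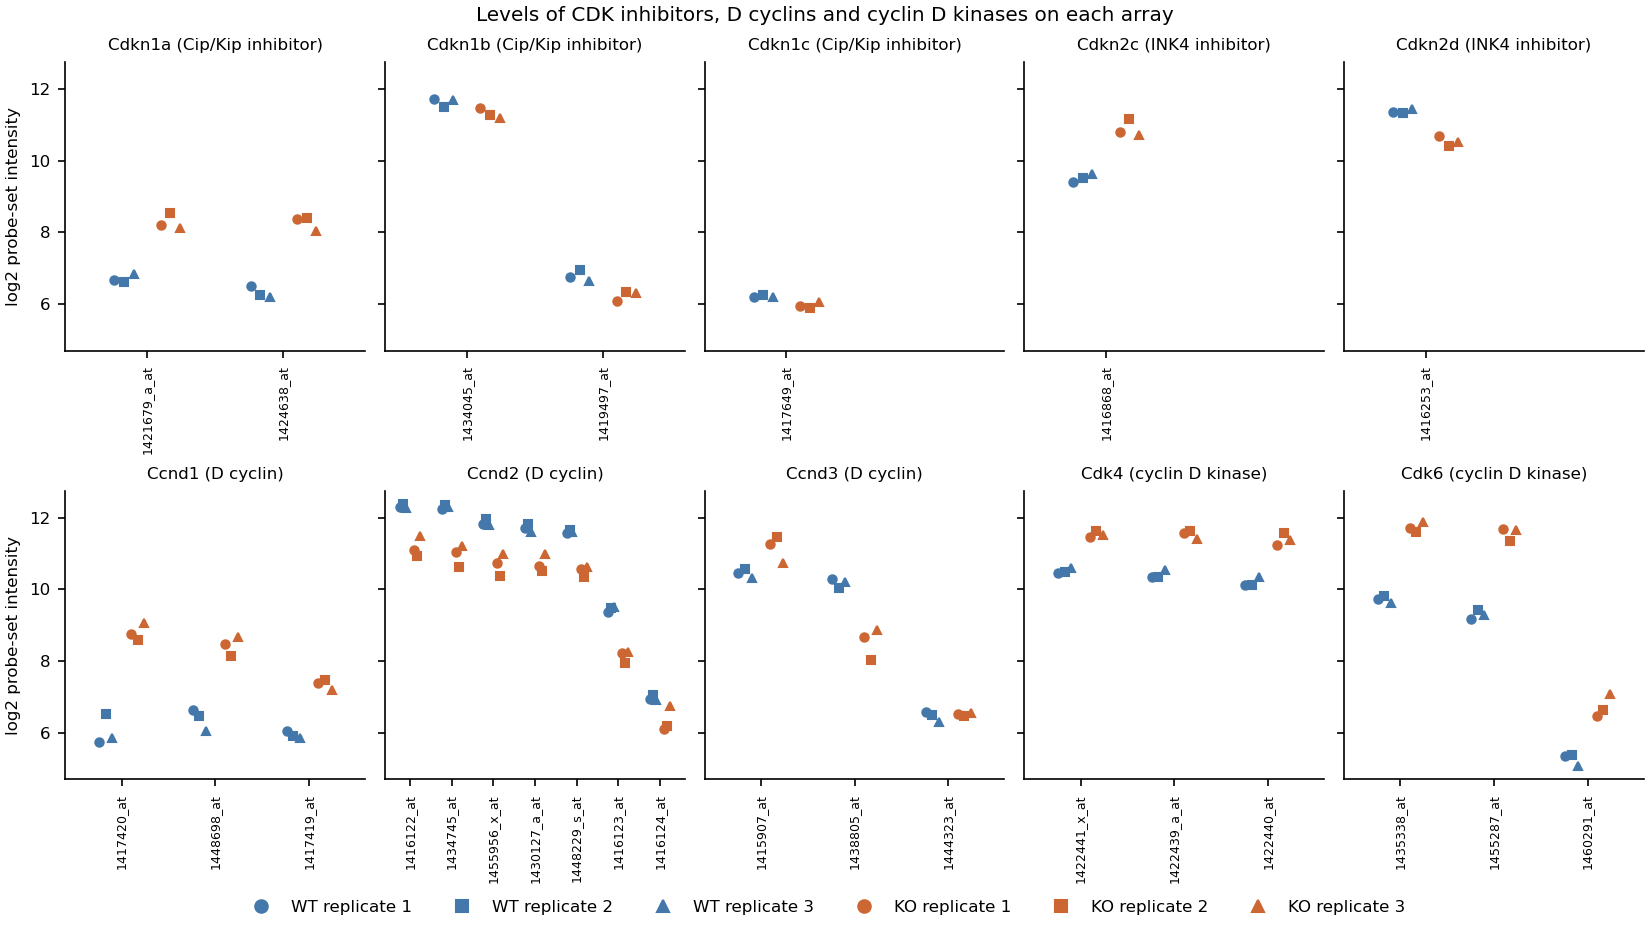
Log2 probe-set intensity (vertical axis) on each of the 6 arrays for the 26 probe sets of the 10 genes, with a panel for each gene and probe sets along the horizontal axis, WT in blue, KO in orange and a symbol for each replicate. KO lies above WT in all probe sets of Cdkn1a, Cdkn2c, Ccnd1, Cdk4 and Cdk6 and below it in all those of Cdkn1b, Cdkn1c, Cdkn2d and Ccnd2, and the 3 probe sets of Ccnd3 differ in direction.

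Cdkn1a, which encodes p21, the inhibitor that p53 switches on after DNA damage, rose in both of its probe sets. Its brighter probe set, 1421679_a_at, read 6.66, 6.61 and 6.84 in WT replicates 1 to 3 and 8.19, 8.53 and 8.11 in KO replicates 1 to 3. The lowest KO array lay 1.27 above the highest WT array, a distance larger than the spread within either group. The change was 2.98-fold, a log2 difference of 1.58 ± 0.13 (SE, n = 3 per group, limma adjusted p = 0.000187). The other probe set, 1424638_at, read 6.48, 6.25 and 6.19 in WT and 8.36, 8.39 and 8.02 in KO and rose 3.85-fold (limma adjusted p = 8.6e-05). In neither Cdkn1a probe set did the groups come within 1 log2 unit of each other.

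Cdkn1b, which encodes p27, the inhibitor that holds resting lymphocytes in G0, lay slightly lower in KO. The bright probe set 1434045_at read 11.70, 11.51 and 11.69 in WT and 11.46, 11.26 and 11.20 in KO. The groups were separated by only 0.05, and the difference of -0.33 ± 0.11 (SE, n = 3 per group) was not called (limma adjusted p = 0.0556). The call depended on the setting, since this probe set fell with dim probe sets left out (limma adjusted p = 0.0415), with repeated quantile normalization (0.0240), with trend and robust fitting (0.0299) and without KO replicate 1 (0.0378). The dimmer probe set 1419497_at read 6.74, 6.94 and 6.63 in WT and 6.08, 6.32 and 6.29 in KO and fell 1.45-fold (limma adjusted p = 0.0113). The 2 readings of Cdkn1b had the same sign and stood on either side of the threshold. Scaled to the hybridization controls the bright probe set differed by 0.039 and the dim one by -0.17, with neither called. The bright probe set thus turned sign under that scaling, and the dim one stayed below 0 in all alternatives tried.

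Cdkn1c, which encodes p57, an imprinted inhibitor of quiescent stem cells, was near the median level of all probe sets, 5.77, on every array. It read 6.19, 6.24 and 6.18 in WT and 5.95, 5.89 and 6.06 in KO. The groups were apart by 0.12, and the difference of -0.24 ± 0.08 (SE, n = 3 per group) was not called (limma adjusted p = 0.0744) and was 0.13 under the hybridization-control scaling. The array values carry no detection calls, so whether Cdkn1c was above background is unknown.

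The 2 INK4 genes changed in opposite directions. Cdkn2c, which encodes p18, an INK4 inhibitor that restrains the cycling of lymphocytes and blood progenitors, read 9.40, 9.51 and 9.63 in WT and 10.80, 11.16 and 10.73 in KO. Every KO array of Cdkn2c lay at least 1.09 above every WT array. It rose 2.61-fold, by 1.38 ± 0.13 (SE, n = 3 per group, limma adjusted p = 0.000342). Cdkn2d, which encodes p19 of the INK4 family, read 11.36, 11.33 and 11.44 in WT and 10.68, 10.40 and 10.52 in KO. All KO arrays of Cdkn2d lay below all WT arrays by at least 0.65, and it fell 1.80-fold, by 0.85 ± 0.10 (SE, n = 3 per group, limma adjusted p = 0.000783). Its difference was -0.48 with hybridization-control scaling and still called.

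The 3 D cyclins went different ways. Ccnd1, the D cyclin of epithelial and many other cells that lymphocytes scarcely use, had the largest rise of the 10 genes. Its brightest probe set, 1417420_at, read 5.73, 6.53 and 5.85 in WT and 8.76, 8.59 and 9.06 in KO. The WT readings were near the median level of all probe sets and WT replicate 2 was the highest of them, while all KO arrays lay at least 2.06 higher. The rise was 6.79-fold, a log2 difference of 2.76 ± 0.22 (SE, n = 3 per group, limma adjusted p = 0.000162). The further probe sets of Ccnd1 rose 4.12-fold (1448698_at, from 6.38 ± 0.30 to 8.43 ± 0.26, SD) and 2.66-fold (1417419_at, from 5.94 ± 0.10 to 7.35 ± 0.15). The direction was thus the same in all 3 Ccnd1 probe sets, and the size ranged over 1.41 to 2.76 on the log2 scale. Because RMA compresses dim values, a rise that begins near the array median may be understated.

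Ccnd2, a D cyclin that antigen and cytokine signals induce in lymphocytes, fell in all 7 of its probe sets. The brightest, 1416122_at, read 12.31, 12.38 and 12.26 in WT and 11.11, 10.94 and 11.48 in KO. The WT arrays of Ccnd2 had an SD of 0.06, and the KO arrays, all lower, were spread more widely (SD 0.28). The fall was 2.20-fold, by 1.14 ± 0.14 (SE, n = 3 per group, limma adjusted p = 0.00105). Across the 7 probe sets the differences ran from -1.33 to -0.62, and the smallest belonged to the dimmest, 1416124_at. That probe set read 6.94, 7.04 and 6.90 in WT and 6.09, 6.18 and 6.76 in KO, and its call (limma adjusted p = 0.0338) was lost in 5 of the 6 fits that left out 1 array, the exception being the fit without KO replicate 3, and also under hybridization-control scaling (difference -0.25), array weights and the block. The other 6 Ccnd2 probe sets kept their calls in all alternatives tried.

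Ccnd3, the D cyclin that expanding thymocytes need, gave opposite readings. The brightest probe set, 1415907_at, drawn from a RefSeq transcript, read 10.45, 10.58 and 10.31 in WT and 11.26, 11.47 and 10.73 in KO. KO replicate 3 was only 0.15 above the highest WT array, and the rise of 1.63-fold (limma adjusted p = 0.0274) was not called without any 1 of WT replicates 1, 2 and 3 or KO replicate 1, where the adjusted p was 0.0822, 0.0567, 0.0864 and 0.0797, nor with array weights (0.0520). The probe set 1438805_at, drawn from an expressed sequence tag, read 10.29, 10.05 and 10.20 in WT and 8.66, 8.02 and 8.86 in KO. Here all KO arrays lay at least 1.19 below all WT arrays, and the fall was 3.17-fold (limma adjusted p = 0.00104). The last probe set, 1444323_at, had overlapping groups, at 6.46 ± 0.15 (SD, n = 3) in WT and 6.51 ± 0.04 in KO (limma adjusted p = 0.721). The mean of the 3 probe sets differed by -0.30 (limma adjusted p = 0.0239), against 0.71 at the brightest. No single direction of Ccnd3 can therefore be given. The promoter table lists 2 starts for Ccnd3, but which transcripts the probe sets match was not examined.

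Both kinases rose in every probe set. Cdk4, the broadly expressed partner of the D cyclins, read 10.45, 10.49 and 10.59 in WT and 11.45, 11.63 and 11.52 in KO at its brightest probe set, 1422441_x_at. The spread of Cdk4 within a group was at most 0.09 (SD), and the lowest KO array was 0.86 above the highest WT array. The rise was 2.03-fold, by 1.02 ± 0.09 (SE, n = 3 per group, limma adjusted p = 0.000223). That probe set can cross-hybridise with related sequences, and the others, 1422439_a_at and 1422440_at, rose 2.19-fold and 2.28-fold. Cdk6, the cyclin D kinase that predominates in blood cells, read 9.73, 9.83 and 9.63 in WT and 11.73, 11.59 and 11.89 in KO at 1435338_at. All KO arrays of Cdk6 were at least 1.76 above all WT arrays. Cdk6 rose 4.01-fold, by 2.00 ± 0.11 (SE, n = 3 per group, limma adjusted p = 3.8e-05), and its probe sets 1455287_at and 1460291_at rose 4.80-fold and 2.77-fold, the latter from a dim 5.26 ± 0.17 (SD, n = 3).

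**Figure D3:**
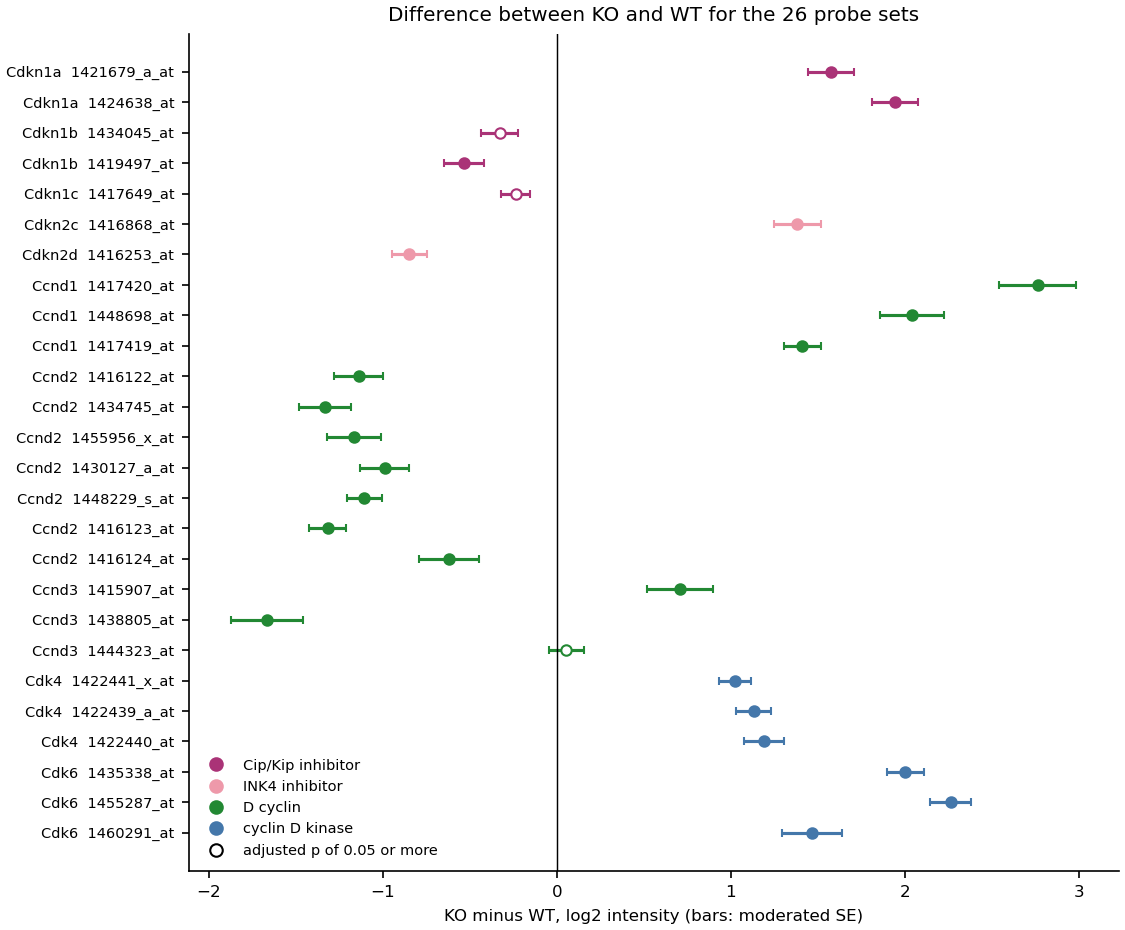
KO minus WT difference in log2 intensity (horizontal axis) for each of the 26 probe sets, with bars for the moderated standard error, colours for the 4 roles and open points where the adjusted p was 0.05 or more. All Cdk4 and Cdk6 points lie between 1.02 and 2.26, all Ccnd2 points between -1.33 and -0.62, and the Ccnd3 points at 0.71, -1.66 and 0.06.

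KO arrays differed among themselves in these genes. KO replicate 2 was the highest of the KO arrays in 8 of the 13 probe sets that rose and the lowest in 8 of the 10 that fell. It was also the lowest in 4 of the 13 that rose, all of Ccnd1 or Cdk6. Of the 10 that fell 7 belong to Ccnd2, so these are not counts of separate genes. KO replicate 3 was the highest in 8 of those 10. The same arrays stood at the ends of the T cell markers, lowest in KO replicate 2 and highest in KO replicate 3, while the S phase and mitosis list was highest in KO replicate 2 (11.74 against 11.44 and 11.30). Erythroid markers (11.12 against 10.50 and 10.05), B cell markers (7.94 against 7.12 and 6.57) and megakaryocyte markers were also highest in KO replicate 2. Neutrophil, mast cell, monocyte and progenitor markers were lowest in it. The part of these differences in the member values was not tested. Without KO replicate 2 the counts over the 26 probe sets were 13 rose and 9 fell, where 27.4% of all probe sets were called, and without KO replicate 1 they were 12 and 10, where 25.6% were called.

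Related genes were also compared within each array, by the log2 difference of their brightest probe sets, which no scaling of whole arrays can move. Levels of different probe sets are not comparable, so only the change of such a difference between genotypes has a meaning. Cdkn2c minus Cdkn2d was -1.97, -1.82 and -1.81 in WT and 0.12, 0.77 and 0.21 in KO, a shift of 2.23. Cdkn1a minus Cdkn1b was -5.05, -4.90 and -4.85 in WT and -3.27, -2.73 and -3.09 in KO, a shift of 1.90. For both pairs of inhibitors the lowest KO value exceeded the highest WT value. Cdk6 minus Cdk4 was -0.71, -0.67 and -0.96 in WT and 0.28, -0.04 and 0.37 in KO, a shift of 0.98, and again no KO array fell within the WT range. Ccnd1 minus Ccnd3 shifted by 2.06, from -4.41 ± 0.34 (SD, n = 3) to -2.35 ± 0.62. Ccnd2 minus Ccnd3 shifted by -1.85, from 1.87 ± 0.08 to 0.02 ± 0.66, and by -0.80 with each gene at the mean of its probe sets. Its direction rests on the choice of Ccnd3 probe set. Against 1438805_at, an alternative chosen after seeing the data, Ccnd2 minus Ccnd3 was 2.02, 2.33 and 2.06 in WT and 2.45, 2.92 and 2.62 in KO, a shift of 0.52 with no overlap, and against 1444323_at it shifted by -1.20. Ccnd1 minus Ccnd3 shifted by 4.43 and 2.71 against the same probe sets. KO and WT arrays did not overlap in any of the 5 differences at the brightest probe sets. For Cdkn1a minus Cdkn1b, Cdkn2c minus Cdkn2d and Ccnd2 minus Ccnd3 this adds nothing to the single genes. The genes of each of these pairs were themselves apart between genotypes in opposite directions, so their difference could not overlap. The two-sided exact permutation p was 0.1 for each, and 0.1 adjusted over the 5 pairs, the smallest that 3 arrays against 3 can give, so these shifts cannot pass a threshold of 0.05.

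**Figure D4:**
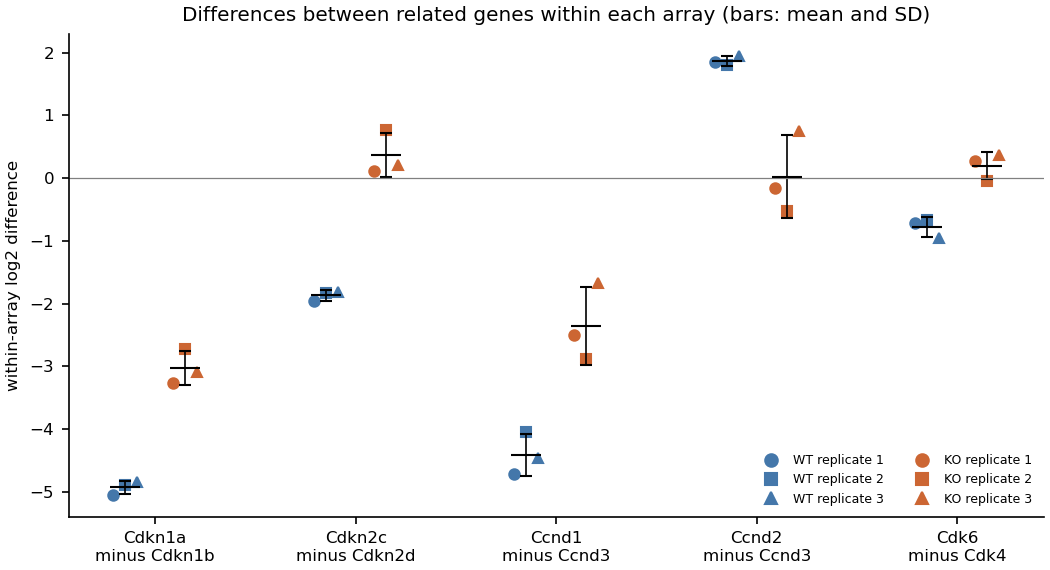
Log2 difference between the brightest probe sets of 2 related genes within each array (vertical axis), WT in blue and KO in orange with a symbol for each replicate, and black bars for the mean and SD of each group. The KO arrays lie above the WT arrays in 4 of the differences, by 2.23 in the mean for Cdkn2c minus Cdkn2d, and below them for Ccnd2 minus Ccnd3, where KO spans -0.53 to 0.76.

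Other cell cycle genes, of G1 control and of S phase and mitosis, were taken from lists written from general knowledge. Earlier results of these data were known when the lists were chosen, so their counts describe the lists and are not independent evidence. Of 64 listed, 62 were measured, as Trp53 and Ccnb1 were not analysed here. Of the 62 measured 36 rose and 9 fell, with a median difference of 0.91 against -0.06 over all genes. Among all genes 37.2% were called (18.6% rose and 18.6% fell). The S phase and mitosis list alone held 17 of the 36 rises. All 5 genes of the next step of the cycle, Ccne1, Ccne2, Ccna2, Cdk2 and Cdc25a, rose. Ccne2, an E-type cyclin, rose 9.46-fold, from 7.21 ± 0.26 (SD, n = 3) to 10.45 ± 0.34, Ccna2, the S phase cyclin, 5.78-fold, and Cdk2, their kinase and the main target of p21 and p27, 2.59-fold (limma adjusted p = 5.8e-05, 4.9e-05 and 0.000186). The further probe set of Ccna2 was called in the same direction, and that of Cdk2 was not called. Of 3 subunits of the CDK-activating kinase, which phosphorylates the cyclin-dependent kinases, Ccnh rose by 0.41, which was not called in the fit blocked on replicate number or when WT replicate 1 or 2 or KO replicate 2 was left out. The other inhibitor genes, Cdkn2a and Cdkn2b, were dim and not called, with differences of 0.33 and 0.00.

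Among 10 pocket proteins, E2F and DP factors, on which cyclin D kinases act, 6 rose and 2 fell. E2f1 and E2f2, activating E2F factors, rose 3.74-fold and 2.62-fold, and Tfdp2, a DP partner, 2.79-fold (limma adjusted p = 0.000228, 0.00397 and 0.000667). Rbl2, the pocket protein p130 of resting cells, fell by 0.71 and E2f5, an E2F factor that pairs with it, fell by 0.83, and both calls were lost under hybridization-control scaling, with 8 rising and 0 falling there. The further probe set of Rbl2 was not called, while the 2 further probe sets of E2f5 fell. Of 9 genes of inhibitor turnover 5 rose and 0 fell. Skp2, the ubiquitin ligase subunit that marks p27 for destruction, rose 6.90-fold, from 7.35 ± 0.11 (SD, n = 3) to 10.13 ± 0.40, and its cofactor Cks1b 2.95-fold (limma adjusted p = 9e-05 and 8.8e-05). Dtl, the ligase adaptor that marks p21 for destruction in S phase, rose 6.05-fold (limma adjusted p = 3.8e-05). Transcripts of inhibitors and of the ligases that remove their proteins were thus measured in the same arrays, and protein levels were not.

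Of 5 genes of D cyclin turnover and assembly 0 rose and 1 fell. That gene was Ambra1, a ligase adaptor for D cyclins, which fell by 0.35, a call lost under the replicate block and in 5 of the 6 fits without 1 array, and a difference of 0.01 under hybridization-control scaling. Of 11 transcriptional regulators of these genes 2 rose and 6 fell. Klf4, a factor that induces Cdkn1a, rose 6.76-fold from 8.03 ± 0.58 (SD, n = 3) to 10.79 ± 0.41, and Stat5a, which carries cytokine signals, by 0.37, which was not called under that block or when WT replicate 2 or either of KO replicates 1 and 3 was left out, nor in its other probe set. Foxo1, which induces Cdkn1b in resting cells, fell by 1.80, Klf2, a quiescence factor of naive T cells, by 1.93 and Notch1, a receptor of early T cells, by 1.41 (limma adjusted p = 4.3e-05, 0.0121 and 0.00537). Scaled to hybridization controls 4 of these regulators rose and 3 fell. All 17 measured genes of the S phase and mitosis list rose, with a median difference of 2.09, among them Aurkb and Bub1, kinases of mitosis, by 2.88 and 2.56 and Mki67, a marker of cycling cells, by 2.50. Without WT replicate 1, 16 of the 17 were called. With dim probe sets left out 16 were called, as Tyms was read only at a dim probe set (mean level 4.68). Over the 3 KO arrays this list averaged 11.50 ± 0.22 (SD) against 9.64 ± 0.06 in WT.

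**Figure D5:**
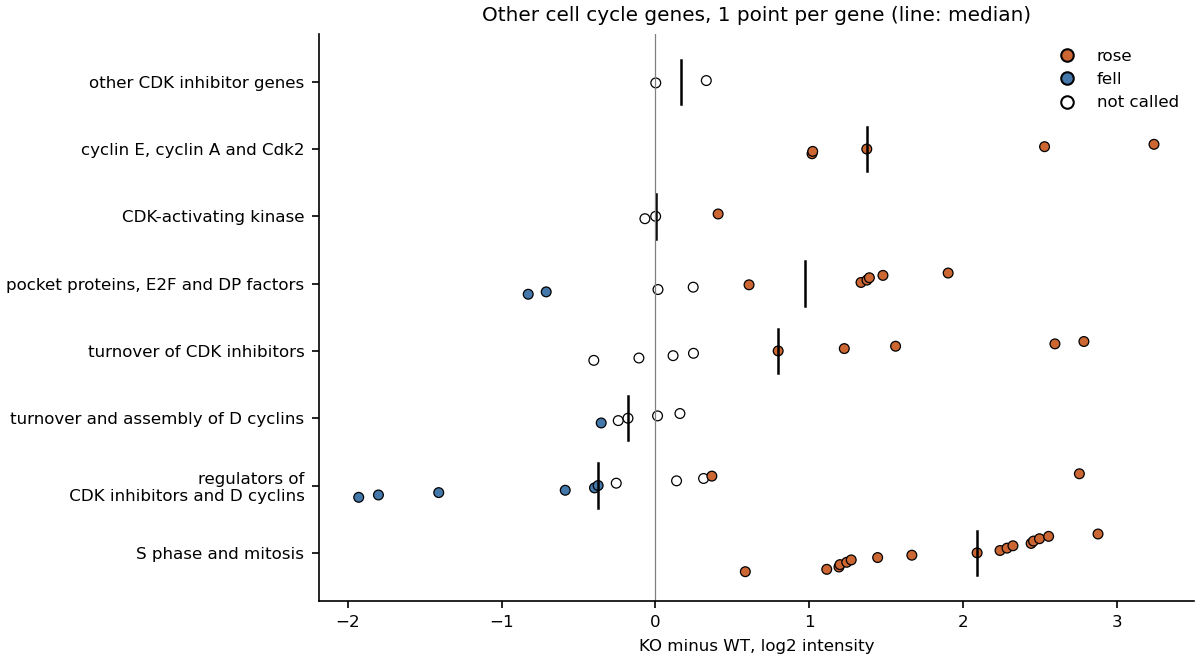
KO minus WT difference in log2 intensity (horizontal axis) of the other cell cycle genes, 1 point for each gene at its brightest probe set, filled orange where it rose, blue where it fell and white where it was not called, with a line at each list's median. The S phase and mitosis list lies wholly to the right of 0 with a median of 2.09, and the regulators lie on both sides with a median of -0.37.

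The genes with profiles nearest to those of the members at the extremes were found by the root mean square distance between values centred on each gene's own mean, over the 6 arrays. Nearest to Ccnd1 were Slc18a2, a monoamine transporter, at a distance of 0.22, Mgl2, a C-type lectin, at 0.23 and Angpt1, a growth factor, at 0.24 in log2 units. These rose by 3.02, 2.69 and 2.70, against 2.76 for Ccnd1. Nearest to Ccnd2 were Hook1 at 0.03 and Arfrp1 and Adgrl1, each at 0.07, which fell by 1.10, 1.11 and 1.04, against 1.14 for Ccnd2. With 2 groups of arrays such a distance is small for any gene whose difference between genotypes has a similar size.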

How the data were processed

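RNA of T cells from 3 WT and 3 KO spleens was measured on 1-colour Affymetrix arrays. The authors deposited 1 log2 intensity per probe set and array, made with RMA (version not given), per the submitters' processing notes. The labels describe amplification primed by oligo(dT) and random primers, and biotin labelling. These log2 values entered the fits unchanged, with no filter or pseudocount. RMA values carry no detection calls, and the number of arrays limits the precision. Replicates are separate animals, since the labels name individual spleens.

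Tests covered 45037 of 45101 probe sets, leaving out 64 array controls. The platform annotation gave 1 gene for 34945 of them, several for 932 and did not list 9160, and the Entrez ID of 34741 was found in RefSeq's table for GRCm38.p6. A gene was represented by its brightest probe set over the 6 arrays. Genotype was fitted with lmFit and eBayes (limma 3.58.1, R 4.3.3), and two-sided p values were adjusted by Benjamini-Hochberg over all 45037 probe sets. The fit was tested on simulated data. The members and the gene lists were chosen with earlier results of these data known. Named were all member probe sets, up to 3 called genes in each direction of each list with the largest differences, and the 3 nearest profiles. Alternatives were a filter on dim probe sets, repeated quantile normalization, median centring, hybridization-control scaling, trend and robust fitting, array weights, a replicate block, other thresholds, the mean of probe sets and leaving out each array, and, added after seeing the data, the other Ccnd3 probe sets in the paired differences. No sample column was left unused.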

Additional observations from a re-analysis of the deposited data

How the results depend on the processing

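Of the 26 probe sets 20 kept their direction and their side of the threshold under every alternative tried, namely those of Cdkn1a, Cdkn2c, Cdkn2d, Ccnd1, Cdk4 and Cdk6, 6 of Ccnd2 and 1438805_at of Ccnd3. Scaling to hybridization controls turned Cdkn1b 1434045_at to 0.039 and Cdkn1c to 0.13, called 14 member probe sets as rising and 8 as falling (43.6% of all probe sets were called there), and gave 17309 rising and 2337 falling over all probe sets, with 88.1% of calls rising against 47.2% as deposited, and 3 falling genes in the pathway lists. With each gene at the mean of its probe sets, Ccnd3 turned to -0.30 and 5 member genes fell, Cdkn1b and Cdkn1c now among them (38.5% of genes called). At an adjusted p below 0.10, 4 member genes fell (44.6% of genes called). Over the fits without 1 array, Ccnd3 1444323_at ranged from -0.028 (without WT replicate 3) to 0.117. With a minimum change of 1.5-fold, 3856 of all probe sets fell. The replicate number as a block left 13 member probe sets rising and 9 falling, the change being Ccnd2 1416124_at (limma adjusted p = 0.0595), and 5296 and 5117 of all probe sets. Same-numbered arrays deviated from their group means with correlations of 0.10, -0.24 and -0.20, and not every array correlated best with its own number. With 3 arrays per group these values cannot decide whether the replicate numbers pair the samples, and the labels pair none. Leaving out each array gave 12 to 13 rising and 9 to 10 falling member probe sets, where 20.9% to 27.4% of all probe sets were called. The causes of these changes were not tested, other than that scaling adds 0.37 to every difference. Of the 5 related pairs, Ccnd2 minus Ccnd3 turned from -1.85 to 0.52 with Ccnd3 at 1438805_at, an alternative chosen after seeing the data, and the other 4 kept their sign in all alternatives run on them. Dim probe sets (Cdkn1c, Ccnd1 in WT, Cdk6 1460291_at) limit what can be read of size.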
